A study of Mus musculus with 4 samples.

Results

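The genes described here encode CD94, the NKG2 proteins and the related receptors Klre1, Klri1, Klri2 and Klrh1, all lectin-like receptors of natural killer (NK) cells that some T cells also carry. The group holds 9 of the 19339 genes listed in each file: Klrd1 (CD94), Klrc1 (NKG2A), Klrc2 (NKG2C), Klrc3 (NKG2E), Klrk1 (NKG2D), Klre1, Klri1, Klri2 and Klrh1. It was drawn up by name, after earlier results of these data were known, so the difference between genotypes was among the values it was chosen by. That difference is therefore given below as a description of the libraries, with no test for these genes.

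CD94 joins an NKG2 chain to form a receptor for the nonclassical MHC class I molecule Qa-1. NKG2A carries inhibitory motifs that recruit the phosphatase SHP-1, whereas NKG2C and NKG2E signal through an adaptor with an activating motif. NKG2D forms a homodimer, binds stress-induced ligands such as the Rae-1, H60 and Mult1 proteins and signals through DAP10 and DAP12. KLRE1 has no signalling motif of its own and pairs with KLRI1, which is inhibitory, or with KLRI2, which is activating. In the gut epithelium such receptors are part of the NK-like program of unconventional intraepithelial lymphocytes (IELs).

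The libraries hold RNA of TCRβ+CD8αα+ IELs from the small intestine of C57BL/6 mice, sorted as CD45+CD4-TCRβ+CD8α+CD8β- cells. Both groups carry loxP-flanked Kdm6b, which encodes a demethylase of histone H3 lysine 27. Control animals are Kdm6b fl/fl, and Kdm6b-deficient animals are Kdm6b fl/fl-CD4Cre, in which Cre acts from the late double-negative stage of thymic development, so that αβ T cells other than IELs are targeted too. Each group has 2 libraries, numbered 1 and 3, and each library pools RNA of several mice, whose ages are not given in the sources used here.

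Expression is given in FPKM, a number of fragments divided by the length of the transcript and by library size, and the difference between groups is given as the log2 fold change, Kdm6b-deficient minus control, of mean log2(FPKM + 1). Depth is not given in the files and was estimated from the steps between low FPKM values, each taken as 1 fragment: taking control replicate 1 as 1, it was between 0.827 and 0.993 in the other libraries. Fragment numbers below rest on that step and on GENCODE lengths and are approximate. Kdm6b itself (chromosome 11, 69398508 to 69420367) had 16.5 and 16.0 FPKM in control replicates 1 and 3. The libraries labelled Kdm6b-deficient replicates 1 and 3 had 18.2 and 11.1 FPKM, a log2 fold change of -0.18 (SE 0.29, adjusted p = 0.886 by limma), so only replicate 3 was below the controls. Which exons are floxed is not given in the sources used here, and a value over the whole gene need not show the deletion.

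The libraries also differed in epithelial RNA. The geometric mean of 22 epithelial markers, set to 1 in control replicate 1, was 3.13 in control replicate 3, 2.83 in Kdm6b-deficient replicate 1 and 7.50 in Kdm6b-deficient replicate 3. A lymphocyte reference, the geometric mean of Cd3d, Cd3e, Cd3g and Ptprc, was 0.811, 0.811 and 0.580 in the same libraries. In bulk RNA, fewer lymphocytes and less receptor RNA per lymphocyte cannot be told apart. The receptor values are therefore also given per lymphocyte reference, and between control replicate 3 and Kdm6b-deficient replicate 1, whose epithelial levels were the closest.

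All 9 genes lie side by side on chromosome 6 (GRCm38, the assembly also called mm10), from 129559365 to 129784270, a span of 224.9 kb in which RefSeq places 0 other protein-coding genes. In ascending coordinates they are Klre1 (129559365 to 129585828), Klrd1 (129588092 to 129598775), Klrk1 (129610323 to 129623903), Klrc3 (129636263 to 129643511), Klrc2 (129649602 to 129660737), Klrc1 (129666015 to 129682852), Klri1 (129696118 to 129720610), Klri2 (129729041 to 129740484) and Klrh1 (129766568 to 129784270). Coding sequences of most gene pairs were at most 68.3% identical. Klrc2 and Klrc3 were 95.3% identical, Klrc1 shared 83.1% with Klrc2 and 85.5% with Klrc3, and Klri1 shared 79.8% with Klri2.

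This identity bears on the values, because a fragment from a shared stretch can belong to either gene. The longest stretches of coding sequence that are letter for letter the same are shown because counting within them rests on how RSEM divides such fragments. They are 203 bases for Klrc2 with Klrc3, 100 bases for Klrc1 with Klrc2 and 94 bases for Klri1 with Klri2, taken from GENCODE M21 transcripts with no letters marked.
Klrc2 and Klrc3: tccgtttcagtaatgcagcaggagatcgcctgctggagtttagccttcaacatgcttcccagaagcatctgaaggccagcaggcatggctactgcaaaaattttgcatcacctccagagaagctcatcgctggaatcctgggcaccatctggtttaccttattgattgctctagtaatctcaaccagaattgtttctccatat
Klrc1 and Klrc2: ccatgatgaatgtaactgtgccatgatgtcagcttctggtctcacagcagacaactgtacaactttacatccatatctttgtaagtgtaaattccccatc
Klri1 and Klri2: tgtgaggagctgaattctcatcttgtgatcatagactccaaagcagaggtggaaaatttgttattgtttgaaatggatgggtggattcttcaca
Of all windows of 50 bases in the coding transcripts, 38.6% in Klrc1, 29.4% in Klrc2 and 38.6% in Klrc3 also occurred in a transcript of another gene. The shares were 5.83% in Klri1 and 2.77% in Klri2, and 0% in Klrd1, Klrk1, Klre1 and Klrh1. The levels of the 3 Klrc genes are thus uncertain relative to each other, and those of the 4 genes without shared windows are not affected in this way at that window length.

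RefSeq promoter entries were found for 7 of the 9 genes, and Klrd1 and Klri2 were not matched. In the 250 bases before the start, the RUNX motif TGTGGT, read on both strands, occurred in 5 of the 7 genes, Klrc1, Klrc2, Klrc3, Klrk1 and Klre1. It occurs in 14.0% of the 32851 promoter entries of the genome, and the near-identical Klrc2 and Klrc3 windows are not separate observations. Of the 5 genes, only Klrk1 has its match before the outermost RefSeq start of the gene. In Klrc1, Klrc2, Klrc3 and Klre1 the matches lie within the annotated span of the gene, and the second Klre1 entry has 0 matches. The T-box motif GGTGTG (16.3% of entries) and the STAT motif TTCNNNGAA (7.02%) had 0 matches in these 7 genes, which says only that these letters are absent from the windows. The windows of Klrc1 and Klrk1 are shown for their match, in capitals, and that of Klrh1, the second most abundant gene of the group in the controls, as a window without one. The Klrk1 window is given up to the outermost RefSeq start of the gene. All are read on the minus strand, 5′ to 3′, from GRCm38.p6.
Klrc1, chr6:129678974.0-129679223.0: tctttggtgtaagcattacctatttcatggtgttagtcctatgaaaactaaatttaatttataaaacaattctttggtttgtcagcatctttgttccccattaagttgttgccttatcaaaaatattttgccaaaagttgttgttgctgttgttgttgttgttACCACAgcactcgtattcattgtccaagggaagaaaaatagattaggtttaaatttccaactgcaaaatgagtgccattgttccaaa
Klrk1, chr6:129623904.0-129624114.0: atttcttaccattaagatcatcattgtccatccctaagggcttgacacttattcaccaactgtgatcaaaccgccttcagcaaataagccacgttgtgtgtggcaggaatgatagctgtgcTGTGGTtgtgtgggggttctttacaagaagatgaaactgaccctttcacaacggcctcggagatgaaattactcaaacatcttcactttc
Klrh1, chr6:129784271.0-129784520.0: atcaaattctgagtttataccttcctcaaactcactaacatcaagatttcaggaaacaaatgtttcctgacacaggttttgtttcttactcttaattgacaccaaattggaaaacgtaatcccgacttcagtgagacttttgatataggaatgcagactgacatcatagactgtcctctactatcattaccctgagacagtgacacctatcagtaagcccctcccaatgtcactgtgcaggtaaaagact
The match lies 87 bases before the start in Klrc1, where the window falls within the longer span of the gene but in no GENCODE exon, and 90 bases before the end of the printed Klrk1 window. It is 129 bases before the start of the RefSeq entry of Klrk1, which lies further into the gene. The first base of each Klre1 window lies in a GENCODE exon, and these windows are not shown. The study probed H3K27 trimethylation near the start of Klre1 with a pair of PCR primers that match chr6:129578187-129578205 and chr6:129578261-129578279, on the plus and the minus strand. It also probed the promoter of Klrd1, whose primers were not located here because no promoter entry was found for that gene. The measurements of neither gene were analysed here.
Klre1 forward primer: atgggtgctaaacggaaat
Klre1 reverse primer: gaactgggaacaggggagg

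FPKM is scaled to length, so levels can be compared between genes. In control IELs the levels spanned from 0.230 FPKM for Klrc3 to 127 FPKM for Klrd1 (means of 2 libraries). Klrd1 was at the 95.8th percentile of all listed genes by its control mean and Klrh1, with 32.3 FPKM ± 0.997 (SD, n = 2), at the 83.3rd. Klrk1 followed with 11.9 FPKM ± 2.99, and its 2 control libraries lay below both of Klrh1 and above both of the next genes. Klre1 (7.30 FPKM ± 1.99), Klri1 (6.91 FPKM ± 1.68) and Klrc1 (6.29 FPKM ± 1.15) overlapped each other and did not differ beyond their spread. Klrc2, Klri2 and Klrc3, with control means of 0.740, 0.670 and 0.230 FPKM, overlapped each other as well and stood below all the others. In the Kdm6b-deficient libraries Klrd1 was again above all the others, while Klrh1 and Klrk1 overlapped.

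**Figure D1:**
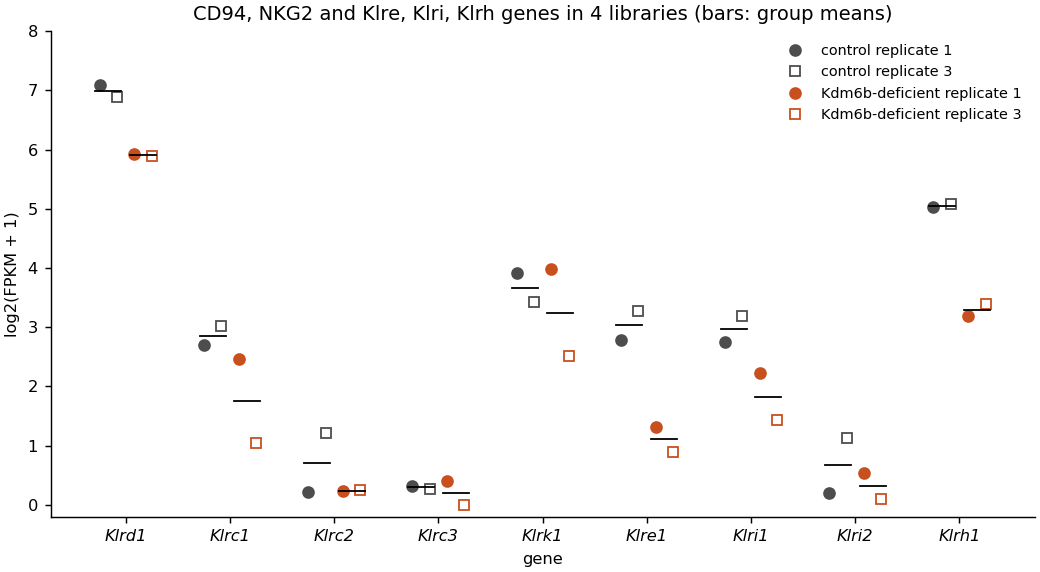
Level of each receptor gene, as log2(FPKM + 1), in the 4 libraries; grey marks control, orange Kdm6b-deficient, circles replicate 1, squares replicate 3, and horizontal bars the means of 2 libraries. In Klrd1, Klrc1, Klre1, Klri1 and Klrh1 both Kdm6b-deficient libraries lie below both controls, whereas in Klrc2, Klrc3, Klrk1 and Klri2 the groups overlap.

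Klrd1 encodes CD94, the partner of the NKG2 chains. It had 136 and 118 FPKM in control replicates 1 and 3, and 59.6 and 58.7 FPKM in Kdm6b-deficient replicates 1 and 3. The groups did not overlap, and the gap between them was wider than that between libraries of a group. The deficient mean was 46.6% of the control mean and the log2 fold change was -1.08.

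Klrc1 encodes the inhibitory chain NKG2A. Its level was 5.47 and 7.10 FPKM in control replicates 1 and 3, 4.51 FPKM in Kdm6b-deficient replicate 1 and 1.07 FPKM in Kdm6b-deficient replicate 3. Both deficient libraries were below both controls, but they differed from each other more than replicate 1 differed from the controls. The log2 fold change was -1.10, and it was -0.39 without Kdm6b-deficient replicate 3 and -1.81 without Kdm6b-deficient replicate 1.

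Klrc2 and Klrc3 encode the activating chains NKG2C and NKG2E. Klrc2 had 0.160 and 1.32 FPKM in the control libraries and 0.170 and 0.190 FPKM in the deficient ones. Only control replicate 3 stood out, and without it the log2 fold change of -0.48 became 0.025. Klrc3 was at 0.250 and 0.210 FPKM in the controls, at 0.330 FPKM in Kdm6b-deficient replicate 1 and listed at 0 in Kdm6b-deficient replicate 3. Taking its GENCODE transcript length of 715 bases, these values stand for about 2, 2, 3 and 0 fragments, too few to show a difference between groups. Its log2 fold change was -0.09, and 0.11 without Kdm6b-deficient replicate 3.

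Klrk1 encodes NKG2D, which does not pair with CD94. It had 14.0 and 9.80 FPKM in control replicates 1 and 3. In the deficient libraries it had 14.7 FPKM in replicate 1, the highest of all 4, and 4.72 FPKM in replicate 3, the lowest. The groups thus overlapped and the log2 fold change of -0.43 (means of 11.9 and 9.73 FPKM) was within the spread of the deficient libraries. It was 0.30 without Kdm6b-deficient replicate 3 and -1.16 without Kdm6b-deficient replicate 1.

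Klre1 encodes the chain that KLRI1 and KLRI2 share. It was at 5.89 and 8.71 FPKM in the control libraries and at 1.50 and 0.860 FPKM in the deficient ones. For its single coding transcript in GENCODE, of 1294 bases, this is about 97 and 140 fragments against 25 and 12. The groups did not overlap and the gap was wider than that between libraries of a group, the deficient mean was 16.2% of the control mean, and the log2 fold change of -1.92 was the most negative of the 9 genes.

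Klri1 encodes the inhibitory partner of KLRE1. Its 2 control libraries had 5.72 and 8.10 FPKM, about 57 and 78 fragments at a length of 838 bases. Kdm6b-deficient replicate 1 had 3.69 FPKM and replicate 3 had 1.69 FPKM, about 36 and 14 fragments. The groups did not overlap, but the gap between them was narrower than that between the control libraries, and the log2 fold change was -1.14, or -0.74 without Kdm6b-deficient replicate 3. Klri2, the activating partner, was low throughout, at 0.150 and 1.19 FPKM in the controls and 0.460 and 0.0700 FPKM in the deficient libraries. At a length of 3913 bases this is about 8, 63, 25 and 3 fragments. The groups overlapped, the control libraries differed the most, and its log2 fold change of -0.34 became 0.12 without control replicate 3.

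Klrh1 encodes a receptor of the same family that is less well studied. It had 31.6 and 33.0 FPKM in the control libraries and 8.17 and 9.55 FPKM in the deficient ones. Libraries of a group were close to each other and the groups far apart. The deficient mean was 27.5% of the control mean, and the log2 fold change of -1.76 ranged from -1.86 to -1.66 when 1 library was left out.

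Of the 9 genes, 6 had at least 1 FPKM in at least 2 libraries, the level required for the comparison across genes, and Klrc2, Klrc3 and Klri2 did not. Of these 6, 5 had a log2 fold change below -1. Across the series 53 of 12009 genes (0.441%) did, and since the genes were selected on this contrast nothing is read from the excess. The count rested on single libraries. It was 3 of 6 (Klrd1, Klre1 and Klrh1) both without control replicate 3, beside 1.18% of all genes, and without Kdm6b-deficient replicate 3, beside 0.644%. It was 4 without control replicate 1 (0.415%) and 6 without Kdm6b-deficient replicate 1 (2.11%). Over all 4 libraries 5 of the 6 were lower in both Kdm6b-deficient libraries than in both controls, against 2230 of 12009 genes (18.6%). All 9 log2 fold changes were negative. The median was -1.12 over the 6 genes and -1.08 over all 9, and that of all genes tested was 0.00097. No gene of the series passed an adjusted p of 0.05 in limma without a block (0 of 12009 genes, 0%), while 642 had an unadjusted p under 0.05 and the smallest adjusted p was 0.193. At 2 libraries a group, the smallest p that exact permutation of the labels allows for a gene is 0.333.

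The proportions among the genes can be read within a library, where dilution by RNA that lacks these transcripts cancels. Klrd1 made up 68.3% and 62.9% of the summed FPKM of the 9 genes in control replicates 1 and 3, and 64.0% and 76.4% in Kdm6b-deficient replicates 1 and 3. Its ratio to the sum of the 3 Klrc genes was 23.2 and 13.6 in the controls and 11.9 and 46.6 in the deficient libraries, so CD94 RNA exceeded NKG2 RNA in every library and the groups overlapped. Relative to Klrd1, Klre1 stood at 4.33% and 7.40% in the controls and at 2.52% and 1.47% in the deficient libraries. Klrh1 stood at 23.2% and 28.0% of Klrd1 in the controls and at 13.7% and 16.3% in the deficient libraries. These 2 genes were thus lower in both deficient libraries even against Klrd1. For Klrc1 the shares were 4.02% and 6.04% against 7.57% and 1.82%, for Klri1 4.20% and 6.89% against 6.19% and 2.88%, and for Klrk1 10.3% and 8.33% against 24.7% and 8.04%, and in these 3 the groups overlapped. The ratio of Klre1 to its partner gene Klri1 was 1.03 and 1.08 in the controls and 0.407 and 0.509 in the deficient libraries.

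Scaled to the lymphocyte reference, 4 of the 6 genes were lower in both Kdm6b-deficient libraries, against 371 of 12009 genes (3.09%) on the same scale. Per 1000 FPKM of the reference, Klrd1 had 214 and 227 in the controls and 115 and 159 in the deficient libraries. Klrh1 had 49.5 and 63.7 against 15.8 and 25.8, Klre1 9.24 and 16.8 against 2.90 and 2.33, and Klri1 8.97 and 15.7 against 7.13 and 4.57. All of these remained apart between groups. Klrc1 did not, with 8.58 and 13.7 in the controls and 8.72 and 2.89 in the deficient libraries, and neither did Klrk1, with 22.0 and 18.9 against 28.5 and 12.8. For the log2 fold changes of log2(value + 1), FPKM was instead divided by the reference relative to its geometric mean over the 4 libraries. This factor was between 0.738 and 1.27. The log2 fold changes were then -1.66 for Klre1 and -1.39 for Klrh1, the only 2 of the 6 below -1, compared with 26 of 12009 genes (0.217%). Klri1 was at -0.85, Klrc1 at -0.83, Klrd1 at -0.70 and Klrk1 at -0.08, and the median of all genes moved to 0.36. These values depend on the added 1. As log2 ratios to the reference with nothing added, Klre1 was at -2.26, Klrh1 at -1.48, Klrc1 at -1.11 and Klri1 at -1.05. Klrd1 was then at -0.70 and Klrk1 at -0.098, and no share over all genes was computed for these ratios.

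Control replicate 3 and Kdm6b-deficient replicate 1 had nearly the same lymphocyte reference and an epithelial level that differed by a ratio of 0.904. Between them, Klre1 in the deficient library was 17.2% of its level in the control library, Klrh1 24.8%, Klri1 45.6%, Klrd1 50.6% and Klrc1 63.5%. Klrk1 went the other way, at 150% of the control library. This is a comparison of a single library with another and has no replicate check. The part of epithelial RNA in the differences over all 4 libraries was not tested.

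**Figure D2:**
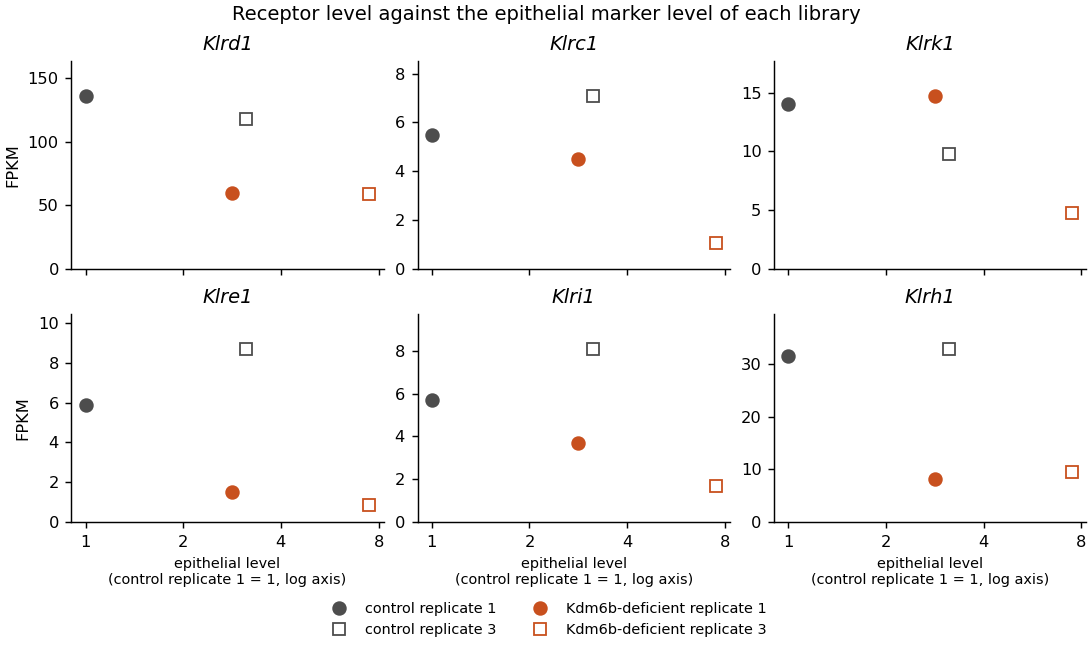
FPKM of the 6 genes above the level filter (linear axes from 0) against the epithelial marker level of each library (log axis, control replicate 1 set to 1), with 1 point per library. At the similar epithelial levels of 3.13 and 2.83, the deficient point is below the control point in all but Klrk1, and the deficient library at 7.50 has no control at its level.

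The genes next to the cluster were listed to set the cluster beside its surroundings. Within 500 kb on either side RefSeq places 20 other protein-coding genes that the files list, of which 10 passed the level filter. On the side of Klre1 with lower coordinates, Gabarapl1, an autophagy gene, had 74.1 and 68.6 FPKM in the controls and 64.3 and 44.3 FPKM in the deficient libraries, a log2 fold change of -0.41. Cd69, an activation and residency marker, overlapped between groups with a log2 fold change of 0.13. Of the 7 tested genes outside the Klra family, 0 were below -1, which at 0.441% of all genes says nothing particular of them. Beyond Klrh1 begins the Klra (Ly49) family, another group of lectin-like NK receptors, and all 3 of its tested genes within the range were below -1 and lower in both deficient libraries, beside 0.441% and 18.6% of all genes: Klra5 at -1.26, Klra6 at -2.05 and Klra7 at -1.96.

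**Figure D3:**
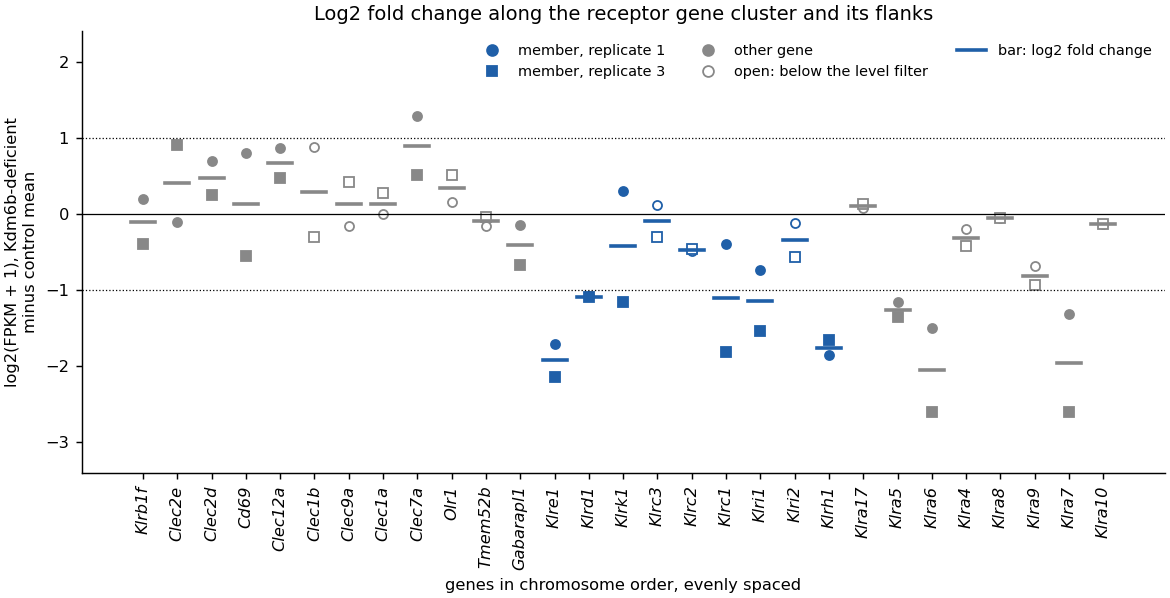
Difference in log2(FPKM + 1) between each Kdm6b-deficient library (circle, replicate 1; square, replicate 3) and the control mean, with a bar at the log2 fold change, for the listed genes of the cluster and of 500 kb on either side, in chromosome order. Blue marks the genes described here, grey the others, open symbols genes below the level filter, and dotted lines -1 and 1. Tested genes from Klrb1f to Gabarapl1 stay above -1, and Klra5, Klra6 and Klra7 lie below it.

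The molecules these receptors signal through were compared as a list of 24 genes, all above the filter. In limma 0 of the 24 passed the adjusted threshold, 8 were lower and 2 higher in both deficient libraries, where over all genes 18.6% were lower and 18.4% higher, and the median log2 fold change was -0.39. Hcst (DAP10), the adaptor of NKG2D, had 182 and 122 FPKM in the controls and 151 and 85.0 FPKM in the deficient libraries. Tyrobp (DAP12), the adaptor of NKG2C and of NKG2D, had 1454 and 920 FPKM in the controls and 1029 and 696 FPKM in the deficient libraries, and both adaptors overlapped between groups. Ptpn6 (SHP-1), which NKG2A recruits, was at 340 and 311 FPKM in the controls and 287 and 226 FPKM in the deficient libraries, a log2 fold change of -0.35. The most negative values of the list were those of Plcg2 and Pik3cd, signalling enzymes, at -0.58 each, and the most positive those of the kinase gene Syk at 0.55 and the adaptor gene Crk at 0.49. Scaled to the lymphocyte reference, which moved the median of all genes to 0.36, the median of the list was -0.014, with 3 lower and 6 higher in both deficient libraries beside 3.09% and 37.2% of all genes on that scale. Hcst, Tyrobp and Ptpn6 had log2 fold changes of -0.0048, -0.058 and 0.040.

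On the ligand side, H2-T23 encodes the heavy chain of Qa-1. It had 392 and 285 FPKM in the controls and 256 and 153 FPKM in the deficient libraries, which did not overlap, and a log2 fold change of -0.75 (SE 0.31, adjusted p = 0.755 by limma). B2m, the light chain, overlapped between groups with a log2 fold change of -0.36. H2-D1, a source of the leader peptide that Qa-1 presents, had 9.37 FPKM in control replicate 1, was listed at 0 in control replicate 3, and had 21.8 and 6.47 FPKM in the deficient libraries. How fragments were divided among the MHC class I genes was not examined, so nothing is read from the H2-D1 values. Among all 11 genes of Qa-1 and its peptide loading, 0 passed limma's adjusted threshold, 2 were lower in both deficient libraries (H2-T23 and Tap2), a share near the 18.6% of all genes, and the median was -0.27. Scaled to the lymphocyte reference 1 was lower and 1 higher, beside 3.09% and 37.2% of all genes, that median was 0.12 where that of all genes was 0.36, B2m was at 0.036 and H2-T23 at -0.36. Of the NKG2D ligands, 5 were listed and 2 passed the filter. Ulbp1 (Mult1) had 10.1 and 12.8 FPKM in the controls and 8.21 and 7.14 FPKM in the deficient libraries, with a log2 fold change of -0.52, and H60b overlapped at 0.27, both without passing limma's adjusted threshold, and when scaled to the lymphocyte reference they were at -0.17 and 0.64. These are values of the sorted preparation, in which the epithelial level also differed.

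Among 24 listed genes of transcription factors, cytokine receptors and their Jak kinases known for a role in NK receptor expression, 23 passed the filter and 0 passed limma's adjusted threshold. In both deficient libraries 8 were lower and 1 was higher, beside 18.6% and 18.4% of all genes, with a median log2 fold change of -0.24. Runx3, which guides CD8 T cell and IEL development, had 101 and 69.1 FPKM in the controls and 67.6 and 40.3 FPKM in the deficient libraries, a log2 fold change of -0.67 (SE 0.32, adjusted p = 0.755 by limma). Tbx21 (T-bet) overlapped between groups at -0.06, with 84.1 and 53.0 FPKM against 84.2 and 49.0 FPKM. Il2rb, the IL-15 receptor β chain that unconventional IELs depend on, was at -0.46. Ikzf2 (Helios) was the most negative of the list at -0.87, and Id3, an inhibitor of E proteins, the most positive at 0.79. Scaled to the lymphocyte reference the median of the list was 0.14 and that of all genes 0.36, with 2 genes lower and 7 higher in both deficient libraries, beside 3.09% and 37.2% of all genes on that scale, and with Tbx21 at 0.33, Il2rb at -0.066 and Runx3 at -0.28.

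Markers of the sorted cells and of other cells were read beside these results. Of 9 CD8αα IEL markers tested, 7 were lower in both deficient libraries, beside 18.6% of all genes, with a median of -0.52, or 4 with a median of -0.13 when scaled to the lymphocyte reference, beside 3.09% on that scale. Cd3e and Ptprc are in this list and in the reference, so the scaling itself holds them near 0 (0.037 and 0.064). All 22 epithelial markers had positive log2 fold changes, from 0.67 to 1.71 with a median of 1.38, and 5 were higher in both deficient libraries, beside 18.4% of all genes, or again 5 when scaled to the lymphocyte reference, beside 37.2%. The 4 NK cell markers in the files, from cells that carry the same receptors, summed to 20.5 to 27.4 FPKM in the controls and 22.4 to 32.3 FPKM in the deficient libraries. Of these Ncr1 was at 0.130 to 2.48 FPKM, Eomes at no more than 0.160 FPKM, and Klrb1c at 24.2 and 17.1 FPKM in the controls and 27.2 and 17.8 FPKM in the deficient libraries. Cd8b1, absent from the sorted gate, was at 0 to 1.64 FPKM, while Cd4, also gated out, reached 30.6 and 10.1 FPKM in the controls and 30.5 and 3.17 FPKM in the deficient libraries. Of 6 myeloid markers 3 were higher in both deficient libraries (median 0.46), beside 18.4% of all genes, and all 6 (median 0.82) when scaled to the lymphocyte reference, beside 37.2%. Their summed level was 303 to 448 FPKM in the controls and 490 to 706 FPKM in the deficient libraries. The summed level of 5 γδ T cell markers was 4.66 to 8.82 FPKM in the controls and 8.36 to 12.9 FPKM in the deficient libraries, with Cd163l1 and Blk each listed at 0 in a control library. That of 5 B cell markers was 2.95 to 21.8 FPKM in the controls and 3.23 to 52.0 FPKM in the deficient libraries, and Pax5 was listed at 0 in control replicate 1. Blk, Cd163l1 and Pax5 are named because they were at 0, which was seen in their values. A sort for CD45+CD4-TCRβ+CD8α+CD8β- cells would leave out NK, B, myeloid, γδ T and epithelial cells. The part of these cells in the receptor values was not tested.

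The mean profile of the 6 genes over the 4 libraries, each gene centred on its own mean on the log2 scale, was 0.57 and 0.67 in the controls and -0.29 and -0.95 in the deficient libraries. Klri1 was closest to it, with a root mean square difference of 0.14, and Klrk1 farthest at 0.54. Among 8697 other genes with a mean of at least 5 FPKM, the smallest differences were those of Ccr9 (0.095), the chemokine receptor that brings T cells to the small intestine, Adamtsl2 (0.17), the pseudogene Nutf2-ps2 (0.18), Trim39 (0.19) and Gm12253 (0.19). Ccr9 had 63.3 and 63.3 FPKM in the controls and 38.3 and 22.9 FPKM in the deficient libraries. The likeness is over only 4 libraries, which also differ in their epithelial and lymphocyte levels, and is given as a description.

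**Figure D4:**
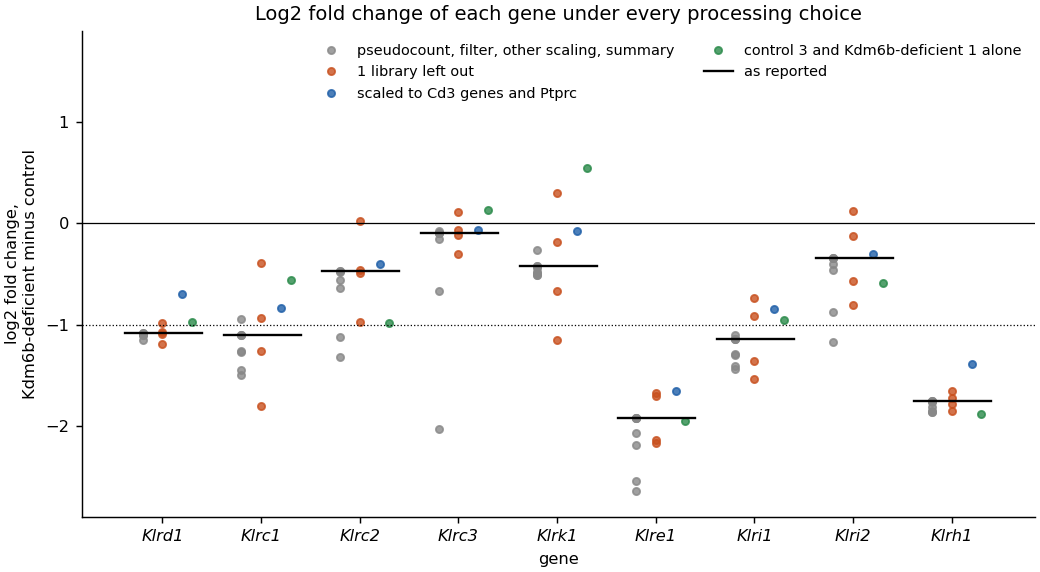
Log2 fold change of each gene (Kdm6b-deficient minus control) under the processing choices described in the closing section; black bars show the values reported above, grey points other pseudocounts, filters, scalings and the ratio of group means, orange points 1 library left out, blue points scaling to Cd3 genes and Ptprc, and green points control replicate 3 against Kdm6b-deficient replicate 1. All points of Klrd1, Klrc1, Klre1, Klri1 and Klrh1 are below 0, those of Klre1 and Klrh1 below -1, and Klrc2, Klrc3, Klrk1 and Klri2 have points on both sides of 0.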

How the data were processed

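Bulk RNA-seq of sorted TCRβ+CD8αα+ IELs was analysed from 4 libraries, 2 per group. The authors aligned reads with HISAT and Bowtie2 (2.2.5) to mm10 (GRCm38.p5) and quantified genes with RSEM (1.2.8), versions and builds being those of the submitters' processing notes, and deposited FPKM with 2 decimals, a value per Entrez gene. The annotation they used is not given in the sources used here. FPKM divides by length and by the mapped fragments of a library, so RNA of other cells lowers the FPKM of every lymphocyte gene, and the values analysed are not counts, so fragment numbers are estimates and no counting interval is given.

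Symbols came from RefSeq (GRCm38.p6), which matched 18467 of 19339 identifiers, and transcripts from GENCODE M21. Relative depth came from the step between low FPKM values, times length less 150 bases, of genes with a single transcript (168 to 483 genes a library), and of these values 66.5% to 72.0% lay within 0.2 of a whole multiple. The step was chosen for its fit to these same values, and a part of them would lie that near a multiple for any step. Genes that reached 1 FPKM in 2 or more libraries were tested on log2(FPKM + 1) with limma 3.58.1 (trend, Benjamini-Hochberg adjustment, R 4.3.3), without a block, on all 12009 genes. The study states in general that its experiments were repeated independently, but the sources used here do not say whether the libraries of a group came from separate experiments, and p-values then measure only the spread between these libraries, which may be technical. Tables and figures used pandas 2.3.3, numpy 2.4.6 and matplotlib 3.10.9 in Python 3.11.15.

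The genes and lists were chosen with earlier results of these data known. Named genes are all 9 receptors, the coding neighbours within 500 kb, from each list at most the 2 most positive and the 2 most negative plus Hcst, Tyrobp, Ptpn6, H2-T23, B2m, Tbx21, Runx3, Il2rb and Kdm6b, and the 5 genes nearest in profile. Blk, Cd163l1 and Pax5 fall outside this rule. Alternatives were pseudocounts, filters, scalings, ratios of group means, a replicate block, no trend and leaving out each library. Control replicate 3 against Kdm6b-deficient replicate 1 was added after seeing the data.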

Additional observations from a re-analysis of the deposited data

How the results depend on the processing

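Klre1 and Klrh1 were below -1 under all 11 alternatives chosen at the start that can move a single gene, and Klrd1, Klrc1 and Klri1 were below 0 under all 11 and below -1 under 9, 7 and 8 of them. Between control replicate 3 and Kdm6b-deficient replicate 1 alone, a comparison chosen after seeing the data, Klre1 and Klrh1 were at -1.96 and -1.89, and Klrd1, Klrc1 and Klri1 at -0.97, -0.56 and -0.96. A filter on low values leaves a gene's own value as it is. The median of the tested genes of the group (-1.12) ranged from -1.60 to -0.91 when 1 library was left out and was -0.84 when scaled to Cd3 genes and Ptprc. Klrc2 (-0.98 to 0.025 with 1 library left out) and Klri2 (-0.81 to 0.12) reversed without control replicate 3. Klrc3 (-0.30 to 0.11) and Klrk1 (-1.16 to 0.30) reversed without Kdm6b-deficient replicate 3, and both also in that comparison of 2 libraries (0.14 and 0.54). The low genes depended on the pseudocount: at 0.01 Klrc2, Klrc3 and Klri2 were at -1.33, -2.04 and -1.18. Kdm6b reversed to 0.19 when scaled to Cd3 genes and Ptprc, to 0.18 in the comparison of 2 libraries, and ranged from -0.52 to 0.16 with 1 library left out. For these reversals the cause was not tested.

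Genes below -1 numbered 53 as reported, 178 and 197 with pseudocounts of 0.1 and 0.01, 34 with a filter at 5 FPKM, 103 rescaled to a common sum of FPKM, 91 after quantile normalization, 26 scaled to Cd3 genes and Ptprc, 145 in the comparison of 2 libraries and 49 to 247 with 1 library left out. Genes above 1 numbered 744, 1203 and 1254 with the pseudocounts, 1408 scaled to Cd3 genes and Ptprc, 413 in the comparison of 2 libraries and 292 to 1242 with 1 library left out. Genes lower in every deficient library than in every control numbered 2230, 371 scaled to Cd3 genes and Ptprc, 6005 in the comparison of 2 libraries, where any lower value counts, and 3382 to 4671 with 1 library left out. Scaling to Cd3 genes and Ptprc moved the median of all genes from 0.00097 to 0.36.

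With the replicate block, limma passed 1019 genes (133 of them lower) in place of 0, and Kdm6b was not among them (adjusted p = 0.704). The labels give both groups the numbers 1 and 3 but do not say what they share. Deviations from the group means of same-numbered libraries correlated at 0.56 across genes, which is a hint from the data and not from the design. Under the other fits, including limma without a trend and each fit with 1 library left out, 0 genes passed. The few fragments limit what can be said of Klrc3, the spread between the control libraries that of Klrc2 and Klri2, and 2 libraries a group limit every gene.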
